A study of Mus musculus with 6 samples.

Results

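The genes described here are β-catenin itself, the 4 Tcf/Lef factors that bring it to DNA, and 5 targets and feedback inhibitors of the same pathway. They were chosen by name (Ctnnb1, Tcf7, Lef1, Tcf7l1, Tcf7l2, Axin2, Nkd1, Nkd2, Notum and Apcdd1), as all spots of the arrays that carry these names. All 10 genes could be tested, among 18003 genes in all, and 17 probes represented them, of which 13 could be tested. Gene expression had been measured in the interzone, the condensed cell band that prefigures a synovial joint in the mouse limb. The intermediate interzone and the outer interzone, which borders the cartilage, were compared with 3 arrays each at 15.5 days of gestation. Each replicate was 1 embryo. No genotype, treatment or strain is given in the sources used here, and neither is the way the layers were separated. Total RNA was amplified, labelled with Cy3 and hybridised to 1-colour Agilent arrays.

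In canonical Wnt signalling a destruction complex built on Axin and Apc marks β-catenin for breakdown, and a Wnt signal stops this, so that β-catenin reaches the nucleus and binds Tcf/Lef factors. These factors sit on DNA with Groucho/Tle co-repressors when β-catenin is absent, and activate targets when it is present. Many targets are inhibitors of the pathway, which makes their mRNA a common readout of it. In the joint, β-catenin is known for keeping interzone cells from turning into chondrocytes.

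The arrays differed in brightness. Intermediate replicates 1, 2 and 3 had a 75th percentile of processed signal of 144, 265 and 344, and outer replicates 1, 2 and 3 had 47.4, 290 and 150. The share of spots well above background was 35.6% on outer replicate 1 and between 45.1% and 53.4% elsewhere. The intermediate arrays and outer replicate 1 were on slide 1, and outer replicates 2 and 3 on slide 2. A level is the log2 ratio of a signal to its array's 75th percentile, an error is the SD of the 3 arrays of a group, and a difference is the outer mean minus the intermediate mean. On this scale the median difference of all genes was 0.10, and it was -0.29 when each array was scaled to its median instead. Levels of different probes are not compared with each other, because probes differ in their hybridisation.

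The labelled tissue was checked against markers of the cell types it could hold. Cartilage markers were called higher in outer interzone for 8 of 8 genes, and their summed linear level (in multiples of the 75th percentile) was 53.9 to 105 in intermediate and 521 to 780 in outer samples. Leukocyte markers were called lower in outer interzone for 7 of 8 genes, with sums of 45.6 to 85.1 and 5.99 to 15.2. Endothelial markers were called lower for 6 of 8 genes, with sums of 86.4 to 103 and 50.1 to 73.2. The 1 endothelial marker with a difference above 0 was Kdr, at 0.82 (limma adjusted p 0.231), or -0.74 with its probes averaged. Its probe is bright and weighs heavily in the outer sums. Of 9 interzone markers 2 were called higher in outer interzone and 1 lower, with sums of 98.9 to 224 and 94.3 to 209. The 1 called lower, and some of the called cartilage, leukocyte and endothelial markers, entered the test only through the layer where they are high. They were not well above background on every array of the other layer, so their calls are no support for a difference. Neurofilament light chain, Nefl, was the 1 testable gene of 6 Schwann and nerve markers and was called lower. None of the 6 testable skeletal muscle, 5 epidermal, 6 tendon and 5 erythroid markers was called, and all 4 hypertrophic markers were too dim to test. Erythroid sums nevertheless ran from 453 to 1113 in intermediate and from 52.9 to 626 in outer samples. When same-numbered samples formed a block, as described below, 2 erythroid markers were called lower and 1 tendon marker higher in outer interzone. Endothelial markers were then called lower for 7 of 8 genes. That fit called 9.09% of all genes. The part of these cell types in the differences described next was not tested. In bulk samples fewer cells of a type and less RNA per cell cannot be told apart.

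None of the 10 genes passed the threshold of adjusted p 0.05 in the fit across all genes, in which 4.05% of all genes were called, 1.57% as higher in outer and 2.48% as higher in intermediate interzone (limma with Benjamini-Hochberg adjustment). At an unadjusted p under 0.05 there were 3 of them, Lef1, Nkd1 and Nkd2, against 21.1% of all genes. The replicate numbers were taken to pair the samples, because same-numbered samples deviated from their group means together. When same-numbered samples formed a block (the replicate block), 2 of the 10 genes were called, Lef1 and Nkd1, both higher in outer interzone, against 9.09% of all genes in either direction, 4.64% as higher in outer and 4.44% as higher in intermediate interzone. The arrays of both groups did not overlap for Lef1 and Nkd1 with outer higher, against 15.6% of all genes, and for Nkd2 with intermediate higher, against 11.4%. The median difference of the 10 genes was 0.45, or 0.06 after scaling to the array median. Of the 10 differences 8 were above 0 on the first scale and 6 on the second.

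**Figure D1:**
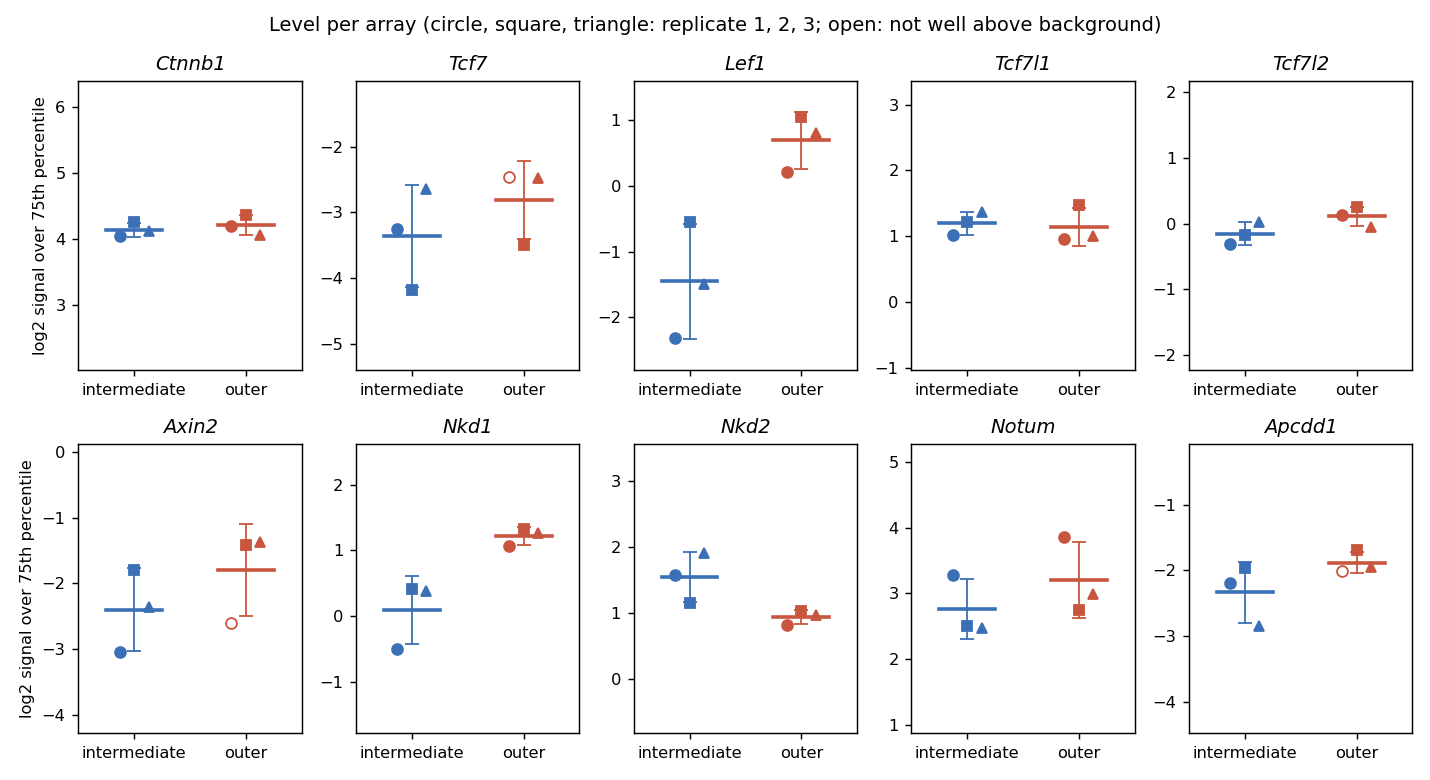
Level of each gene on every array, as the log2 ratio of its signal to the array's 75th percentile (vertical axis), for intermediate and outer interzone, with 3 arrays per group and the group mean as a line. The outer arrays lie above every intermediate array for Lef1 and Nkd1 and below every intermediate array for Nkd2, and the groups overlap for the other 7 genes.

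Lef1 and Axin2 are common readouts of β-catenin activity, and the Tcf7l2 probe reads the DNA-binding box shared by the family, so a probe of each is shown as the stretch of mRNA that was read. The Lef1 probe joins sequence at the 3′ end of the coding region across a gap, spanning chr3:130907851-130926012 (mm9, plus strand). The Axin2 probe lies at chr11:108803927-108803986 and the Tcf7l2 probe at chr19:55994029-55994088 (mm9, plus strand). They come from the deposited scanner files and have no capitals because no motif is marked.
Lef1 probe: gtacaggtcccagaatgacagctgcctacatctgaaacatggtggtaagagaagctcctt
Axin2 probe: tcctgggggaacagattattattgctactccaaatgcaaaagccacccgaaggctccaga
Tcf7l2 probe: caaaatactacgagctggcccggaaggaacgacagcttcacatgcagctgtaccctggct

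β-catenin mRNA, Ctnnb1, differed between the layers by less than the spread between arrays. The probe at chr9:120869274-120869333 (mm9) read 4.05, 4.26 and 4.11 in intermediate replicates 1, 2 and 3, and 4.19, 4.37 and 4.07 in outer replicates 1, 2 and 3. The groups overlapped and the 6 arrays lay close together. The difference was 0.07 (SE 0.17), with a 95% interval from -0.33 to 0.46 and an adjusted p of 0.850 in limma. The interval excludes a change beyond 1.38-fold in favour of outer interzone. The sign turned with the processing. The difference was -0.32 after scaling to the array median and -0.03 after normexp background correction with quantile normalization. The activity of β-catenin is regulated by protein breakdown, which these arrays do not measure.

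Lef1 differed most among the 10 genes. This factor has little activity of its own without β-catenin or other partners, and its gene is also a target of the pathway. Its brighter probe, at chr3:130926200-130926259 (mm9), read -2.31, -0.55 and -1.49 in intermediate replicates 1, 2 and 3, and 0.22, 1.06 and 0.81 in outer replicates 1, 2 and 3. Every outer array was above every intermediate array. The means were -1.45 ± 0.88 and 0.69 ± 0.43 (SD, n = 3), and the difference of 2.14 (SE 0.45, 95% interval 1.08 to 3.21) corresponds to 4.42-fold. The limma adjusted p was 0.0504, just past the threshold, and it was 0.0272 under the replicate block. The same-numbered samples differed by 2.53, 1.61 and 2.29.

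The junction probe shown above gave Lef1 a difference of similar size. It read -3.53, -1.71 and -2.55 in intermediate and -0.70, -0.24 and -0.31 in outer replicates 1, 2 and 3. Intermediate replicate 1 was not well above background, so that its value there is only a bound. The difference was 2.18 (SE 0.44). Probe by probe, 3.48% of all probes were called and 1.33% were called as higher in outer interzone. There the brighter probe had a limma adjusted p of 0.0527. The junction probe had 0.0457 in limma, but it entered the test only through the outer arrays, where it is high, so its call is no support for Lef1. Within slide 1 alone, where outer replicate 1 stands against the 3 intermediate arrays, the brighter probe differed by 1.67 (limma adjusted p 0.158). A slide block gave the same difference, with a limma adjusted p of 0.141. Leaving out intermediate replicate 2, the highest intermediate array of the brighter probe, gave a difference of 2.59 and a limma adjusted p of 0.0352, which is a call. Leaving out any other single array gave no call, with limma adjusted p from 0.0560 to 0.169. The block's call was lost for Lef1 (limma adjusted p 0.0617) and for Nkd1 (limma adjusted p 0.0757) when quantile normalization was used with it.

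The other 3 Tcf/Lef factors were not called, with or without the replicate block. Tcf7, known as Tcf1 in T cells and itself a frequent Wnt target, was dim. Its probe at chr11:52066114-52066173 (mm9) read -3.25, -4.18 and -2.64 in intermediate and -2.47, -3.50 and -2.48 in outer replicates 1, 2 and 3, and outer replicate 1 was not well above background. The groups overlapped, and the difference was 0.54 (SE 0.45, 95% interval -0.53 to 1.60, limma adjusted p 0.532). A second Tcf7 probe was well above background on 0 of 6 arrays.

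Tcf7l1, the member of the family best known as a repressor, read 1.01, 1.22 and 1.36 in intermediate and 0.95, 1.47 and 1.00 in outer replicates 1, 2 and 3 (chr6:72576377-72576436, mm9). The arrays of the layers were interleaved. The difference was -0.06 (SE 0.21, 95% interval -0.55 to 0.43, limma adjusted p 0.898), and its sign changed when intermediate replicate 3, outer replicate 1 or outer replicate 3 was left out.

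Tcf7l2, the factor linked to gut stem cells and to diabetes risk, had 3 tested probes that differed from one another. The brightest, printed above, reads the coding sequence of the DNA-binding box. It gave -0.31, -0.18 and 0.03 in intermediate and 0.13, 0.24 and -0.05 in outer replicates 1, 2 and 3, so that the groups overlapped. The difference was 0.26 (SE 0.18, 95% interval -0.15 to 0.68, limma adjusted p 0.435), and it was -0.13 after scaling to the array median.

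The other Tcf7l2 probes had larger differences without overlap between the layers. The probe nearer the gene's start, at chr19:55817272-55817331 (mm9), read -0.51, -0.95 and -1.11 in intermediate and 0.63, -0.24 and -0.37 in outer replicates 1, 2 and 3, a difference of 0.87 (limma adjusted p over probes 0.184). The probe at chr19:56006638-56006697 (mm9) differed by 0.52 (limma adjusted p over probes 0.245). The mean of the 3 probes differed by 0.55 with a limma adjusted p of 0.122. Whether the probes read different transcripts of Tcf7l2 was not tested.

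**Figure D2:**
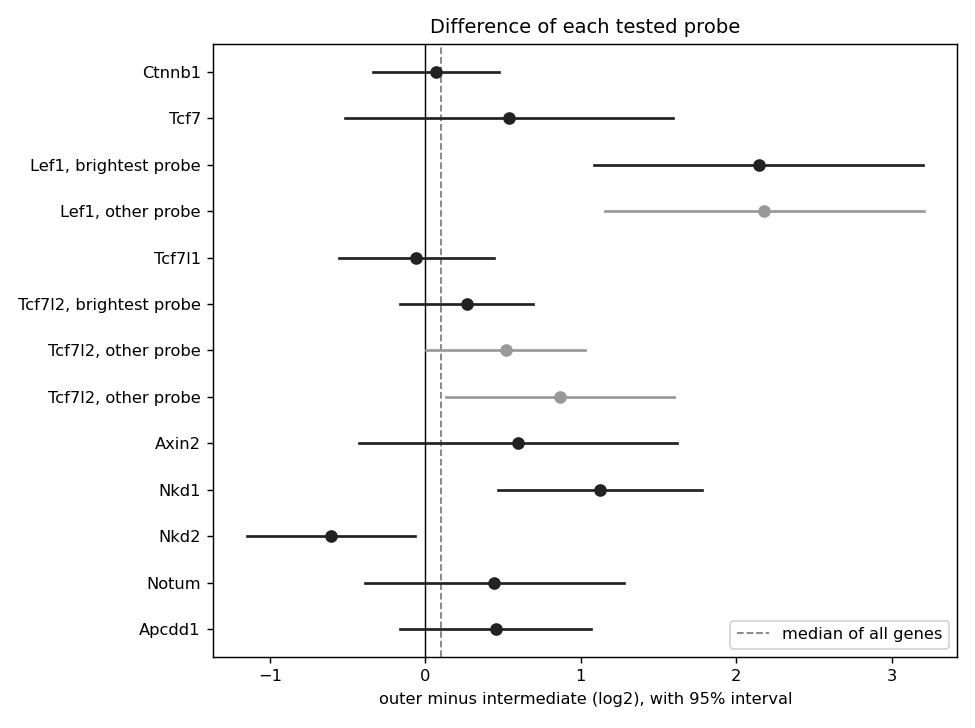
Difference of outer minus intermediate interzone for the 13 tested probes of the 10 genes (log2), as the limma estimate over all tested probes, with its 95% interval. There were 3 arrays per group. The interval of the brighter Lef1 probe runs from 1.08 to 3.20 and that of Nkd1 from 0.47 to 1.78. The interval of Nkd2 lies below 0. Intervals above 0 also belong to the Lef1 junction probe and to the less bright Tcf7l2 probes (0.13 to 1.60 and 0.001 to 1.03). All remaining intervals include 0.

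Nkd1 and Nkd2 are paralogous Dishevelled-binding inhibitors inside the cell, with a difference above 0 for Nkd1 and below 0 for Nkd2. Nkd1 was called with the replicate block and not without it, and Nkd2 was called in neither fit. Nkd1, a frequent target of the pathway, read -0.51, 0.41 and 0.39 in intermediate and 1.07, 1.32 and 1.27 in outer replicates 1, 2 and 3 (chr8:91116160-91116219, mm9). Every outer array was higher than every intermediate array, and the outer arrays lay closer together. The means were 0.10 ± 0.52 and 1.22 ± 0.13 (SD, n = 3). The difference of 1.12 (SE 0.28, 95% interval 0.47 to 1.78) is 2.18-fold, with a limma adjusted p of 0.0775 that became 0.0409 under the replicate block. A second Nkd1 probe, well above background on 2 arrays of each group and so not tested, differed by 1.06, with overlap between the groups. Its same-numbered samples differed by 2.15, 0.57 and 0.45. The first of these pairs, replicate 1, was not well above background in either layer, so the 1.06 rests largely on background.

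Within slide 1 Nkd1 differed by 0.97 (limma adjusted p 0.214). A slide block gave the same difference (limma adjusted p 0.178). Scaling to the array median gave 0.73 (limma adjusted p 0.226). Normexp background correction with quantile normalization gave 0.84 with a limma adjusted p of 0.0483.

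Nkd2 read 1.57, 1.15 and 1.91 in intermediate and 0.82, 1.02 and 0.97 in outer replicates 1, 2 and 3 (chr13:73956776-73956835, mm9). The lowest intermediate array, at 1.15, was close to the highest outer array, at 1.02. The difference was -0.61 (SE 0.23, 95% interval -1.14 to -0.07), which is 1.52-fold higher in intermediate interzone. It did not pass the test (limma adjusted p 0.190, and 0.113 under the replicate block). A second probe of the gene, not tested, differed by -0.37. Scaling to the array median moved the difference to -1.0 with a limma adjusted p of 0.0798. The difference between the Nkd1 and Nkd2 responses was not tested.

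Axin2, the inducible scaffold of the destruction complex and the most general target of β-catenin, was near the detection limit. Its brighter probe, at chr11:108812034-108812093 (mm9), read -3.05, -1.79 and -2.36 in intermediate and -2.61, -1.42 and -1.38 in outer replicates 1, 2 and 3. Outer replicate 1 was not well above background there and lay under -1.82, the lowest such level on that array. The groups overlapped, and the same-numbered samples differed by 0.44, 0.37 and 0.98.

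The Axin2 difference of 0.60 (SE 0.44, 95% interval -0.44 to 1.63) had a limma adjusted p of 0.476, which was 0.0913 under the replicate block. Without outer replicate 1 it was 1.00 (limma adjusted p 0.226), and within slide 1, which has outer replicate 1 as its only outer array, it was -0.21. The other Axin2 probe, printed above, was well above background on 2 arrays of each group and differed by 0.53. The interval of the brighter probe reaches 3.09-fold in favour of outer interzone, so a difference up to that size is not excluded.

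Notum and Apcdd1 are inhibitors that act at the cell surface. Notum, a secreted esterase that removes the lipid from Wnt proteins, read 3.29, 2.51 and 2.48 in intermediate and 3.86, 2.75 and 3.00 in outer replicates 1, 2 and 3 (chr11:120515209-120515268, mm9). Replicate 1 was the highest in both layers. The difference was 0.44 (SE 0.35, 95% interval -0.39 to 1.28, limma adjusted p 0.514). Without outer replicate 1 it was 0.12, and with slide as a block, where it rests on that array, it was 1.10 (limma adjusted p 0.123).

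Apcdd1, a membrane glycoprotein that binds Wnt and Lrp5, read -2.18, -1.97 and -2.85 in intermediate and -2.01, -1.70 and -1.95 in outer replicates 1, 2 and 3 (chr18:63112729-63112788, mm9). Outer replicate 1 was not well above background. The groups overlapped, and the difference was 0.45 (SE 0.26, 95% interval -0.16 to 1.06, limma adjusted p 0.365).

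Same-numbered samples, taken as pairs although the labels do not say so, showed how far a direction was shared. In all 3 pairs the outer sample was higher for 6 of the 10 genes (Axin2, Lef1, Tcf7, Nkd1, Apcdd1 and Notum), against 37.3% of all genes. It was lower in all 3 pairs for Nkd2 alone, against 22.2% of all genes. For Ctnnb1, Tcf7l1 and Tcf7l2 the pairs differed in sign. The outer replicate 1 values of Axin2, Tcf7 and Apcdd1 were not well above background, so the sign of that pair shows little for them. The pairs were not taken after scaling to the array median. That scaling moves all differences of a pair by a constant and can turn the sign of small ones.

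**Figure D3:**
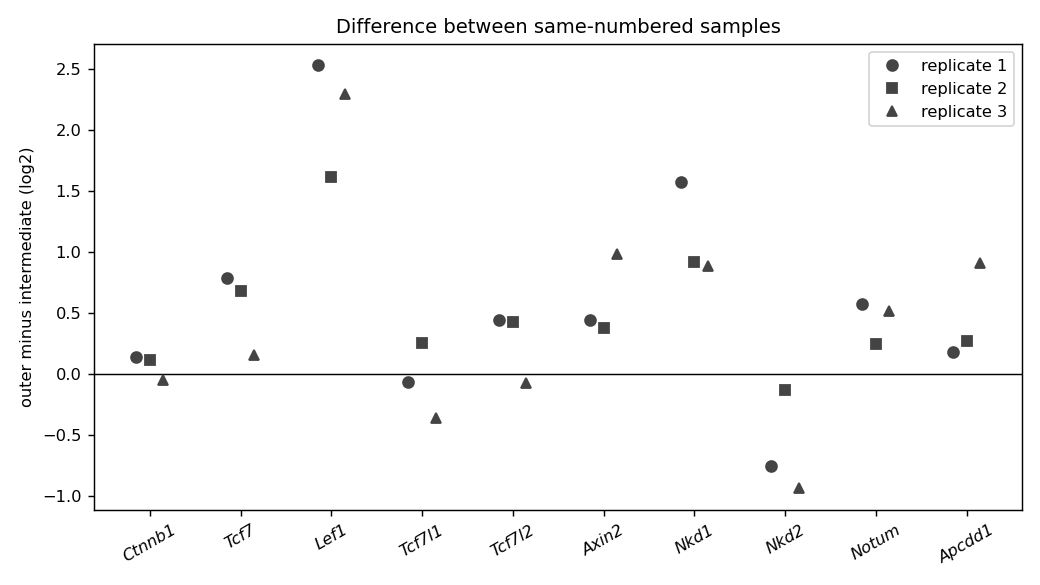
Difference of outer minus intermediate interzone within each of the 3 same-numbered pairs (log2), one symbol per replicate number. The Lef1 pairs lie at 2.53, 1.61 and 2.29 and the Nkd1 pairs at 1.57, 0.91 and 0.88, and for Ctnnb1, Tcf7l1 and Tcf7l2 the pairs lie on both sides of 0.

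Lef1 and Nkd1 are the 2 genes called with the replicate block, and their promoters are shown for the Tcf/Lef motif. The sequences are the 250 bases before the RefSeq start (GRCm38.p6, plus strand), at chr3:131110047-131110296 for Lef1 and chr8:88527383-88527632 for Nkd1, and capitals mark CTTTG, the core of the motif.
Lef1 promoter: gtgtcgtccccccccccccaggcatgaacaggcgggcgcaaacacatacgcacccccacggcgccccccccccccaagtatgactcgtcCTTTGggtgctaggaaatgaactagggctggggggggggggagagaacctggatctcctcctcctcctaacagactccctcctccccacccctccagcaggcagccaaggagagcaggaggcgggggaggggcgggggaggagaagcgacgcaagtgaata
Nkd1 promoter: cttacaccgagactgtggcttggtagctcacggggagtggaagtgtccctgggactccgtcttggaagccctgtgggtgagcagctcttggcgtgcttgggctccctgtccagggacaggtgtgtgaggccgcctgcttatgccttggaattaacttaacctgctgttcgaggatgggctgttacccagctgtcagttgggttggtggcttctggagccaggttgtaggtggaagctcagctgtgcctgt

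The printed Lef1 stretch holds 1 core match and the Nkd1 stretch holds 0. The 7-letter Tcf/Lef motif, CTTTG followed by a pair of letters that are each A or T, was searched on both strands in windows from 250 bases before to 50 after each RefSeq start, and 16.9% of 32851 such windows hold at least 1, while 53.9% hold the core CTTTG, which is part of it. For 8 of the 10 genes 14 windows were matched, and Apcdd1 and Notum had no entry. A 7-letter motif lies in 2 of the 14, a later start of Lef1 and a later start of Tcf7l2, and the core lies in 7. These 7 are all starts of Lef1, Tcf7l1 or Tcf7l2, and some Lef1 windows overlap, so the 7 are not separate genes. A match describes the letters only and says nothing on binding.

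The rest of the pathway was described from 3 lists with 75 genes, of which 66 could be tested. Among these 1 was called, Ccnd1, against 4.05% of all genes. Ccnd1 encodes cyclin D1, a driver of the G1 phase and a cited β-catenin target. It read 3.02, 3.27 and 3.28 in intermediate and 4.40, 4.91 and 4.49 in outer replicates 1, 2 and 3, and every outer array was higher. The difference was 1.41 (SE 0.20, 2.65-fold), with a limma adjusted p of 0.0179, or 0.0272 under the replicate block. The call was lost after scaling to the array median (1.02, limma adjusted p 0.0758), under a slide block (1.21, limma adjusted p 0.0519) and within slide 1 (1.21, limma adjusted p 0.0533). Leaving out intermediate replicate 1, intermediate replicate 3 or outer replicate 3 also ended it, with limma adjusted p of 0.0698, 0.0789 and 0.0691. Ccnd1 responds to many growth signals besides Wnt.

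Among 25 genes of Wnt signal transduction (Lrp co-receptors, Dishevelled and the destruction complex) 24 were tested and 0 were called. At an unadjusted p under 0.05 in limma there were 2, against 21.1% of all genes. With the replicate block 0 were called, against 9.09% of all genes. The median difference of the 24 was 0.07, or -0.32 after scaling to the array median, beside 0.10 and -0.29 for all genes. Of the 24 differences 13 were above 0, but only 3 after that scaling. Dvl3, a Dishevelled protein that relays the signal from Frizzled, was 4.79 ± 0.09 in intermediate and 5.53 ± 0.39 in outer interzone (SD, n = 3), with a limma adjusted p of 0.130. Csnk1d, a casein kinase of the pathway, was 5.22 ± 0.06 and 4.86 ± 0.29, with a limma adjusted p of 0.351.

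Among 25 nuclear co-factors and inhibitors all were tested and 0 were called. At an unadjusted p under 0.05 in limma there were 4, against 21.1% of all genes. With the replicate block 1 was called, Tle1, against 9.09% of all genes. The median difference of the 25 was 0.18, or -0.21 after scaling to the array median. Of the 25 differences 18 were above 0, but only 6 after that scaling. The groups did not overlap for 5 of the 25 with outer higher and for 1 with intermediate higher, against 15.6% and 11.4% of all genes. Among the 5 were Tle1, Tle2 and Tle3, Groucho co-repressors that bind Tcf/Lef factors, which were picked out after their values were seen. Tle1 differed by 0.63 (limma adjusted p 0.203, and 0.0480 under the block), Tle2 by 0.53 (limma adjusted p 0.134) and Tle3 by 0.66 (limma adjusted p 0.0899), with outer higher. After scaling to the array median these differences were 0.24, 0.13 and 0.27. The groups overlapped for Tle4 and Tle6, which differed by 0.44 and 0.20. Tle5, a short family member without the domain that recruits repressors, differed by 0.24 and the co-repressor Ctbp1 by 0.08, also with overlap. Tle5, Tle6 and Ctbp1 were below 0 after scaling to the array median.

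Of 25 other cited targets 17 were tested, and 8 were too dim. Besides Ccnd1 none was called, and 5 of the 17 had an unadjusted p under 0.05 in limma, against 21.1% of all genes. The median difference of the 17 was -0.03, or -0.42 after scaling to the array median. With the replicate block 3 of the 17 were called, against 9.09% of all genes in either direction. These were Ccnd1 and 2 named here after their values were seen. Tnfrsf19, also called Troy, differed by 0.91 (limma adjusted p 0.245, and 0.0373 with the block). Nr5a2, a nuclear receptor, differed by -1.70 (limma adjusted p 0.0554, and 0.0480 with the block). Its probe was well above background on 1 of 3 outer arrays and entered the test only through the intermediate arrays, so the size of its difference rests mostly on background. The block's calls of Ccnd1, Tle1, Tnfrsf19 and Nr5a2 were all lost when quantile normalization was used with it (limma adjusted p 0.0609, 0.0793, 0.0700 and 0.0771).

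**Figure D4:**
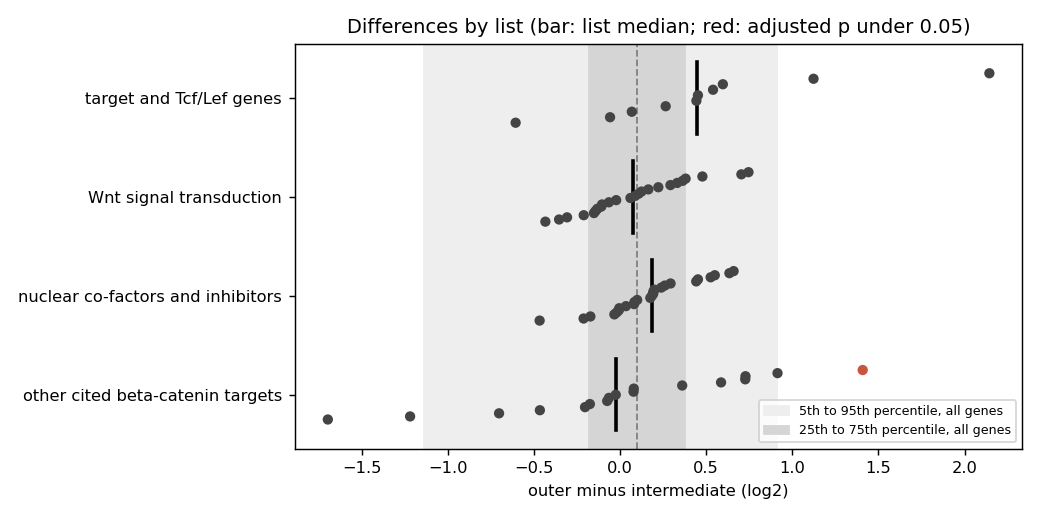
Difference of outer minus intermediate interzone (log2) for every tested gene of the 10 genes and of the 3 pathway lists, with 1 point per gene, a bar at each list's median, grey bands for the middle ranges of all genes and a dashed line at their median. The medians are 0.45, 0.07, 0.18 and -0.03, beside 0.10 for all 18003 genes, and Ccnd1 is the 1 called gene.

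The genes most like Axin2 and Lef1 in pattern were sought over the 6 arrays among genes that have a symbol in the RefSeq table and a representing probe well above background on all of them (11209 and 11208 candidates). Axin2 was closest to Rpl36a, a ribosomal protein gene, with Pearson r 0.996, followed by Tomm6, N4bp3 and Gm14407 at 0.995 and Bcl2l12 at 0.993. Lef1 was closest to Adgrg6, an adhesion receptor gene, and Rap1gap at 0.997, then Gpc3 at 0.996, the tafazzin gene Taz at 0.994 and Ptma at 0.993. With 6 arrays such values are common, and 151 candidates passed 0.95 for Axin2 and 210 for Lef1. All points share the arrays' scaling, so these values are a description.

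How far the values of Lef1, Nkd1, Nkd2 and Axin2 move with the processing is shown in the plot of differences by setting. The brighter Lef1 probe, or in 1 setting the mean of both probes, ranged from 1.31 to 2.59 over 18 other settings, with limma adjusted p from 0.0264 to 0.214, and was called in 5 of them. The call with the mean of both probes is no support for Lef1. That mean includes the junction probe, which entered the test only through the outer arrays. Nkd1 ranged from 0.73 to 1.28, with limma adjusted p from 0.0409 to 0.290, and was called in 2 of 18. Nkd2 ranged from -1.0 to -0.42 and was called in none of its 18 (limma adjusted p 0.0798 to 0.470).

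**Figure D5:**
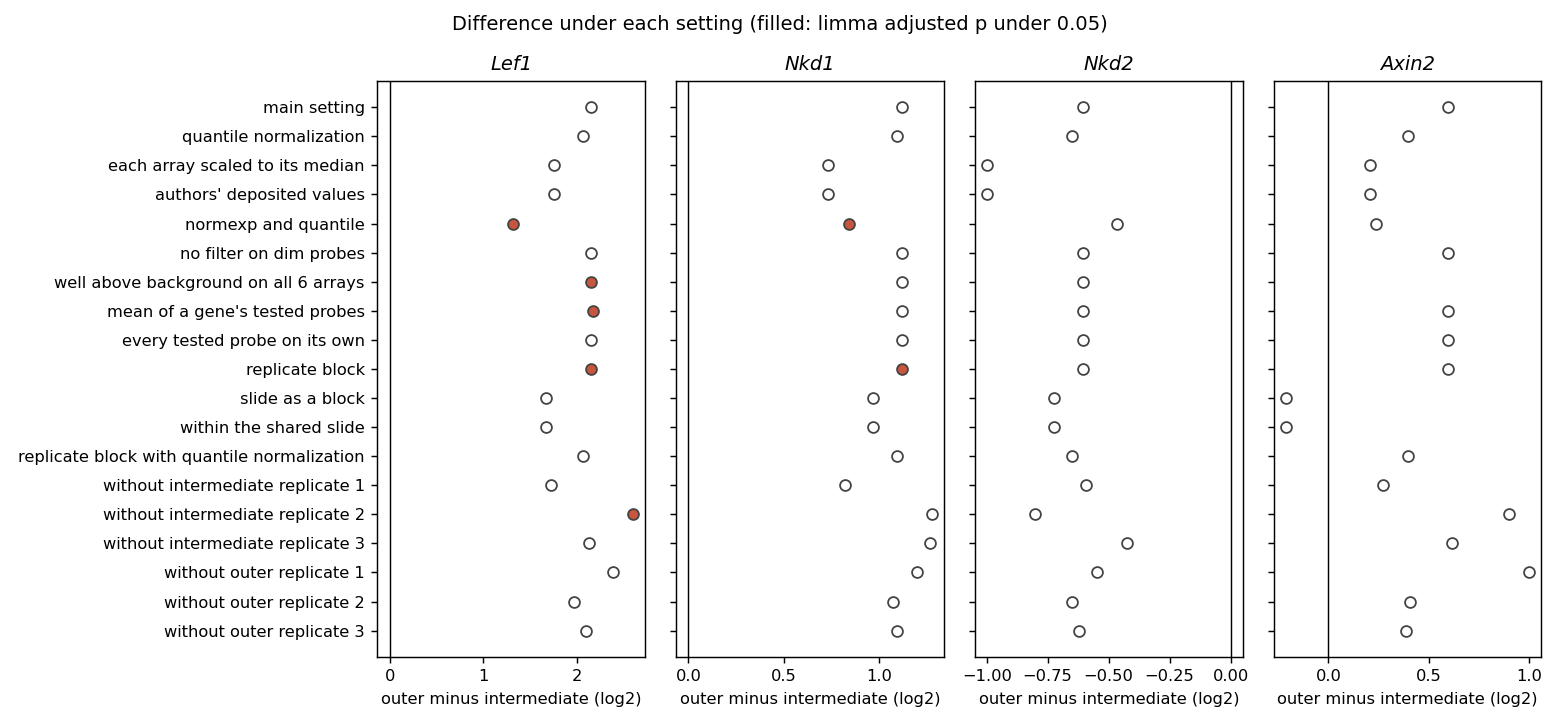
Difference of outer minus intermediate interzone (log2) of Lef1, Nkd1, Nkd2 and Axin2 under each setting of the processing, 1 row per setting, filled where the limma adjusted p was under 0.05. Lef1 and Nkd1 lie above 0 and Nkd2 below 0 in all settings shown, and Axin2 falls to -0.21 with slide as a block and within slide 1.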

How the data were processed

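Each deposited scanner file, which names Agilent Feature Extraction 10.7.3.1 in its header, gives a background-subtracted processed signal intensity per spot, with flags. The authors' deposited series table holds the same intensities divided by 1 constant per array, which sets each array's median to 1. Partek 6.11.0321 is listed too, per the submitters' processing notes, with no step. No column of per-sample values was left unmapped. Positions are those of the probes in build mm9, per the files; annotation of exons and UTRs was not used.

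Spots of 1 probe were averaged on the log2 scale without outlier-flagged spots, and 9 of 55681 probes were left out because an array lacked a value. A RefSeq accession was given for 28390 probes, and 26762 of these received a symbol from a RefSeq table of a later assembly, used only for names. The log2 processed signal minus the array's 75th percentile was tested for the 23884 probes that in 1 group or both were well above background on each array, and the brightest tested probe represented its gene. A two-sided limma 3.58.1 fit (R 4.3.3, lmFit with eBayes) was made over all 18003 genes with Benjamini-Hochberg adjustment and a threshold of 0.05, and was tested on simulated data. The 3 arrays per group limit the precision.

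Replicate numbers come from the labels. After group means were removed, same-numbered samples correlated at 0.372 to 0.563 in 3 of 3 pairs, against at most 0.114 for different numbers, so the numbers were taken to pair the samples, although the labels do not say so. The fit with a replicate block is therefore given where it changes a call. The slide fits rest on outer replicate 1 as the only outer array of slide 1, and that array is assumed there to vary like the intermediate ones.

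Named genes are the 10 genes with every probe, and the called genes of each pathway list or else its 2 brightest. Genes marked as picked afterwards are named too. The rule also takes the 2 brightest genes of each marker list, which are mostly given here as counts and sums. The genes and lists were chosen with earlier results of these data known. Normalization, background correction, the filter, the probe rule, the blocks and the replicates left out were varied.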

Additional observations from a re-analysis of the deposited data

How the results depend on the processing

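All counts here are limma calls at adjusted p 0.05. Normexp stands here for normexp background correction followed by quantile normalization. Of 18003 genes 729 were called. The count was 446 with quantile normalization, 1095 after scaling to the array median and with the authors' deposited values (158 higher in outer and 937 higher in intermediate interzone, against 282 and 447), 460 with the filter on all 6 arrays, and 0 of 35077 without a filter, where 4268 had an unadjusted p under 0.05. It was 1636 with the replicate block, 68 with the replicate block and quantile normalization, 1215 with slide as a block and 1314 within slide 1, and 66 to 1111 with 1 array left out. It was 137, 381 and 66 without intermediate replicates 1, 2 and 3, and 582, 1111 and 90 without outer replicates 1, 2 and 3.

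Of the 10 genes 0 were called as reported. There were 2 (Lef1 and Nkd1) with normexp and with the replicate block, and 1 (Lef1) with each gene's probes averaged, with each tested probe taken alone (its junction probe), and with the filter on all 6 arrays. The calls with probes averaged and with each probe alone use the junction probe, so they are no support for Lef1. With 1 array left out the count was 0 to 1. The pathway lists gave 1 call as reported, 2 with normexp, 0 without a filter, 4 with the replicate block, 0 with it and quantile normalization, 2 with slide as a block, 2 within slide 1, and 0 to 4 with 1 array left out. After scaling to the array median the 1 call was Nr5a2, not Ccnd1. The replicate block changed no other call among the named genes than those of Lef1, Nkd1, Tle1, Tnfrsf19 and Nr5a2.

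Signs turned for 8 of the 29 named genes followed through the settings, none of them called under the reported setting. Tle4 and Tle6, given above for their family only, are not among the 29, and their signs turned too. Tle6 was -0.19 after scaling to the array median and Tle4 -0.017 without outer replicate 1. Axin2 was -0.21 with slide as a block and within slide 1. Scaling to the array median, or the authors' deposited values, gave Tcf7l2 -0.13, Ctnnb1 -0.32, Tle5 -0.15 and Ctbp1 -0.31. Normexp gave Ctnnb1 -0.026, Tle5 -0.049 and Ctbp1 -0.10. The mean of a gene's probes gave Tle5 -0.18 and Kdr, an endothelial marker, -0.74. Ctbp1 was -0.060 with quantile normalization, with or without the replicate block, and -0.19 with slide as a block and within slide 1. With 1 array left out, Tcf7l1 ranged from -0.22 to 0.036 (above 0 without intermediate replicate 3, outer replicate 1 or outer replicate 3), Ctnnb1 from -0.012 to 0.14 and Ctbp1 from -0.029 to 0.22 (below 0 without outer replicate 2), and the interzone marker Gdf5 from -0.56 to 0.51 (above 0 without intermediate replicate 2, outer replicate 1 or outer replicate 3). For 29 named genes 438 other values kept direction and side of the threshold, 36 lost a call and 16 gained one. The cause of these changes was not tested. The probes of Axin2, Tcf7 and Apcdd1 were not well above background on outer replicate 1, the dimmest array, which limits what their values can show.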
